A study of Homo sapiens with 18 samples.

Results

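Cytosolic lipid droplets store fatty acids as triglyceride. To learn how the genes that coat, fill and empty these droplets were expressed when ovarian cancer cells received a saturated or a monounsaturated fatty acid, 10 genes were read across all samples of the experiment: PLIN2 and PLIN3 (coat proteins), HILPDA and G0S2 (inhibitors of triglyceride lipolysis), DGAT1 and DGAT2 (triglyceride synthesis), and PNPLA2, ABHD5, LIPE and MGLL (lipolysis). The genes were picked by symbol for their known roles, with earlier results of these data already known. All 10 were found among the 60483 genes of the expression table. PLIN2 had a mean below 1 TPM (a level per transcript length, relative to all transcripts of the sample) and is given only as low, so 9 of the 10 were tested, among 13789 genes with a mean of at least 1 TPM.

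The cells were OVCAR5, an established human ovarian cancer line that the labels describe as high-grade serous adenocarcinoma of wild-type genotype. RNA was sequenced after 24 h in 6 conditions with 3 replicates each, 18 samples in all. Cells received no fatty acid, 50 µM stearate or 50 µM oleate, each combined with either DMSO (vehicle) or 1 µM CAY10566, an inhibitor of the desaturase SCD1. Those without fatty acid are called the controls. Every medium, the controls included, held 5% fatty acid-free albumin. SCD1 turns stearate, which is saturated, into the monounsaturated oleate, and the design asked how each fatty acid acted with and without desaturation. The study's methods give triplicate treatments for sequencing and speak of independent experiments in general, but do not tie these replicates to separately begun cultures, so p-values measure only the spread between these samples, which may be technical. The findings are of 1 cell line in culture, and in such bulk RNA fewer cells of a kind and less RNA per cell cannot be told apart.

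Epithelial genes were abundant in these cells, with mean levels of 331.4 TPM for EPCAM, 895.4 TPM for KRT8 and 774.5 TPM for KRT18. Of the genes commonly used to mark serous carcinoma, PAX8 was at 11.8 TPM (7.64 to 16.9 over the 18 samples), whereas MUC16 (0.632 TPM) and WT1 (0.126 TPM) were near 0. Genes that define adipocytes, in which most of the 10 genes are best known, were at or near 0: ADIPOQ at 0 TPM, LEP at 0.00222 TPM, PLIN1 at 0.0744 TPM, CIDEC at 0.0122 TPM and FABP4 at 0.0494 TPM. The leukocyte gene PTPRC (0.00556 TPM) and the stromal gene DCN (0.0183 TPM) were also near 0, although COL1A1 was measured at 5.04 TPM. TPM has the same sum in all samples and keeps no read number, and sequencing depth is therefore unknown. CAY10566 replicate 3 stood apart from the other 5 controls, with a size factor of 1.02 against 0.942 to 0.969, and the text gives the values without it where its omission changed a call of a gene named here or moved a list's count by more than 1.5 times.

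Keratin genes moved with both fatty acids. KRT18 was at 808.4 to 927 TPM in the 6 controls and 631.6 to 668.3 TPM in the 6 stearate samples, and fell by 26.2% (log2 fold change −0.44, limma adjusted p = 6.7e-07). KRT8 (−0.24, adjusted p = 2.12e-05) and KRT19 (−0.29, adjusted p = 2e-04) fell too, each without overlap between the groups. In 3.09% of all tested genes the stearate samples lay below the controls in this way. EPCAM (−0.05, adjusted p = 0.304), CDH1 (−0.11, adjusted p = 0.284) and PAX8 (−0.12, adjusted p = 0.509) were not called, although CDH1 passed with size factors (medians of ratios of TPM) as the scaling (−0.17, adjusted p = 0.0356). With oleate KRT18 (−0.16, adjusted p = 0.00923) and KRT19 (−0.13, adjusted p = 0.0351) fell and KRT8 (−0.08, adjusted p = 0.0557) was not called, although it passed with size factors (−0.18, adjusted p = 0.00275). The KRT19 call with oleate was lost in 8 of 18 omissions of 1 sample, among them that of CAY10566 replicate 3 (−0.10, adjusted p = 0.0635). Without CAY10566 replicate 3, CDH1 (0.23, adjusted p = 0.00734) and COL1A1 (0.39, adjusted p = 0.0453) were higher with oleate. The summed level of the epithelial markers was 2554 to 2680 TPM in controls, 2072 to 2220 TPM with stearate and 2295 to 2569 TPM with oleate. The part of this shift in the results below was not tested.

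Triglyceride is completed by DGAT1 and DGAT2, which add the last fatty acid to diacylglycerol, and is wrapped in a phospholipid layer that carries coat proteins of the perilipin family. Its breakdown proceeds in steps: PNPLA2 (adipose triglyceride lipase) releases the first fatty acid, LIPE (hormone-sensitive lipase) acts on diacylglycerol, and MGLL (monoglyceride lipase) cleaves the monoglyceride that remains. PNPLA2 is switched on by its co-activator ABHD5 and held back by the small proteins G0S2 and HILPDA. Fatty acids given to cells are commonly stored through this route, and several of the genes are known targets of fatty acid-sensing PPAR receptors or of the hypoxia response.

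The sequences just upstream of the start site are shown for a coat gene measured at a low level (PLIN2) and for the lipase and the inhibitor that fell with stearate (PNPLA2 and G0S2). RefSeq promoter sequences (GRCh38.p14) covering 250 bases before and 50 bases after the start were found for 6 of the 10 genes: PLIN2, PLIN3, G0S2, PNPLA2, ABHD5 and LIPE. HILPDA, DGAT1, DGAT2 and MGLL had no entry. The 250 bases before the start lie at chr9:19127493-19127742 on the minus strand for PLIN2, at chr11:818664-818913 on the plus strand for PNPLA2 and at chr1:209675162-209675411 on the plus strand for G0S2. They are written 5′ to 3′ in the direction of the gene, with matches to any searched motif in capitals.
PLIN2: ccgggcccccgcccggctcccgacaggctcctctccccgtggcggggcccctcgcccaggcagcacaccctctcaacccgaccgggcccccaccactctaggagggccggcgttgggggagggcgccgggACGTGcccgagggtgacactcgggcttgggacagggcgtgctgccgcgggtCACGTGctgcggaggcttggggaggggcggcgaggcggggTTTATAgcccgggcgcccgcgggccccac
PNPLA2: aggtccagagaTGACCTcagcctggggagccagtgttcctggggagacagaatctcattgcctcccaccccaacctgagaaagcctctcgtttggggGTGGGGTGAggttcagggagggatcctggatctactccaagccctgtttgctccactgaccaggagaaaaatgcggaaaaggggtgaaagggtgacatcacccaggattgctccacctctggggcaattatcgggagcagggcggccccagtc
G0S2: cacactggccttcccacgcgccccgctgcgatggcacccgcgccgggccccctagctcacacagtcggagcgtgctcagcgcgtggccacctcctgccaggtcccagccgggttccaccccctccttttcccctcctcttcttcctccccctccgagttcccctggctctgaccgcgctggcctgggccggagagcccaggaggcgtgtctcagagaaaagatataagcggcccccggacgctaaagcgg

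Both strands of the whole windows were searched for 7 motifs: the paired PPAR element AGGTCANAGGTCA, its single site AGGTCA, the E-box CACGTG, the hypoxia core ACGTG, the sterol element TCACNCCAC, the TEAD motif GGAATG and the TATA box TATAAA. The hypoxia core is contained in the E-box, and the single site in the paired element. The PLIN2 window held CACGTG at −69, ACGTG at −120 and within that E-box, and TATAAA on the opposite strand at −29. The PNPLA2 window held AGGTCA at −239 and TCACNCCAC at −153, both on the opposite strand. No searched motif was present in the windows of G0S2, PLIN3, ABHD5 or LIPE. Over all 35116 promoters of the table, 7.26% held CACGTG, 21.4% ACGTG, 13.8% AGGTCA, 1.13% TCACNCCAC, 14% GGAATG, 11.5% TATAAA and 0.0228% the paired element. These matches describe the letters of the windows and were not tied to binding.

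The 10 genes spanned a wide range of levels. G0S2 was the highest, with a mean of 236.6 TPM over the 18 samples, above 95.9% of the genes tested. PNPLA2 (83.7 TPM) and PLIN3 (67.5 TPM) came next, followed by MGLL (28.5 TPM), ABHD5 (14 TPM) and DGAT1 (11.1 TPM). HILPDA (7.94 TPM), LIPE (6.86 TPM) and DGAT2 (6.55 TPM) were lowest among the tested genes, and these 3 overlapped from sample to sample. PNPLA2 and PLIN3 overlapped in this way too, as did ABHD5 and DGAT1, whereas G0S2 and MGLL were each separate from their neighbours. The lowest DGAT1 value (8.58 TPM) also lay below the highest of HILPDA (9.66 TPM) and LIPE (8.97 TPM). The spread between replicates of a condition was smallest for G0S2, with a coefficient of variation of 4.31%, and stayed at 6.25% for PNPLA2 and 6.4% for MGLL. LIPE was the least even gene (19.4%), followed by DGAT1 (13.2%) and DGAT2 (13%). Hence a change of a given size was easier to detect in G0S2, PNPLA2 and MGLL than in LIPE or the DGAT genes.

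**Figure D1:**
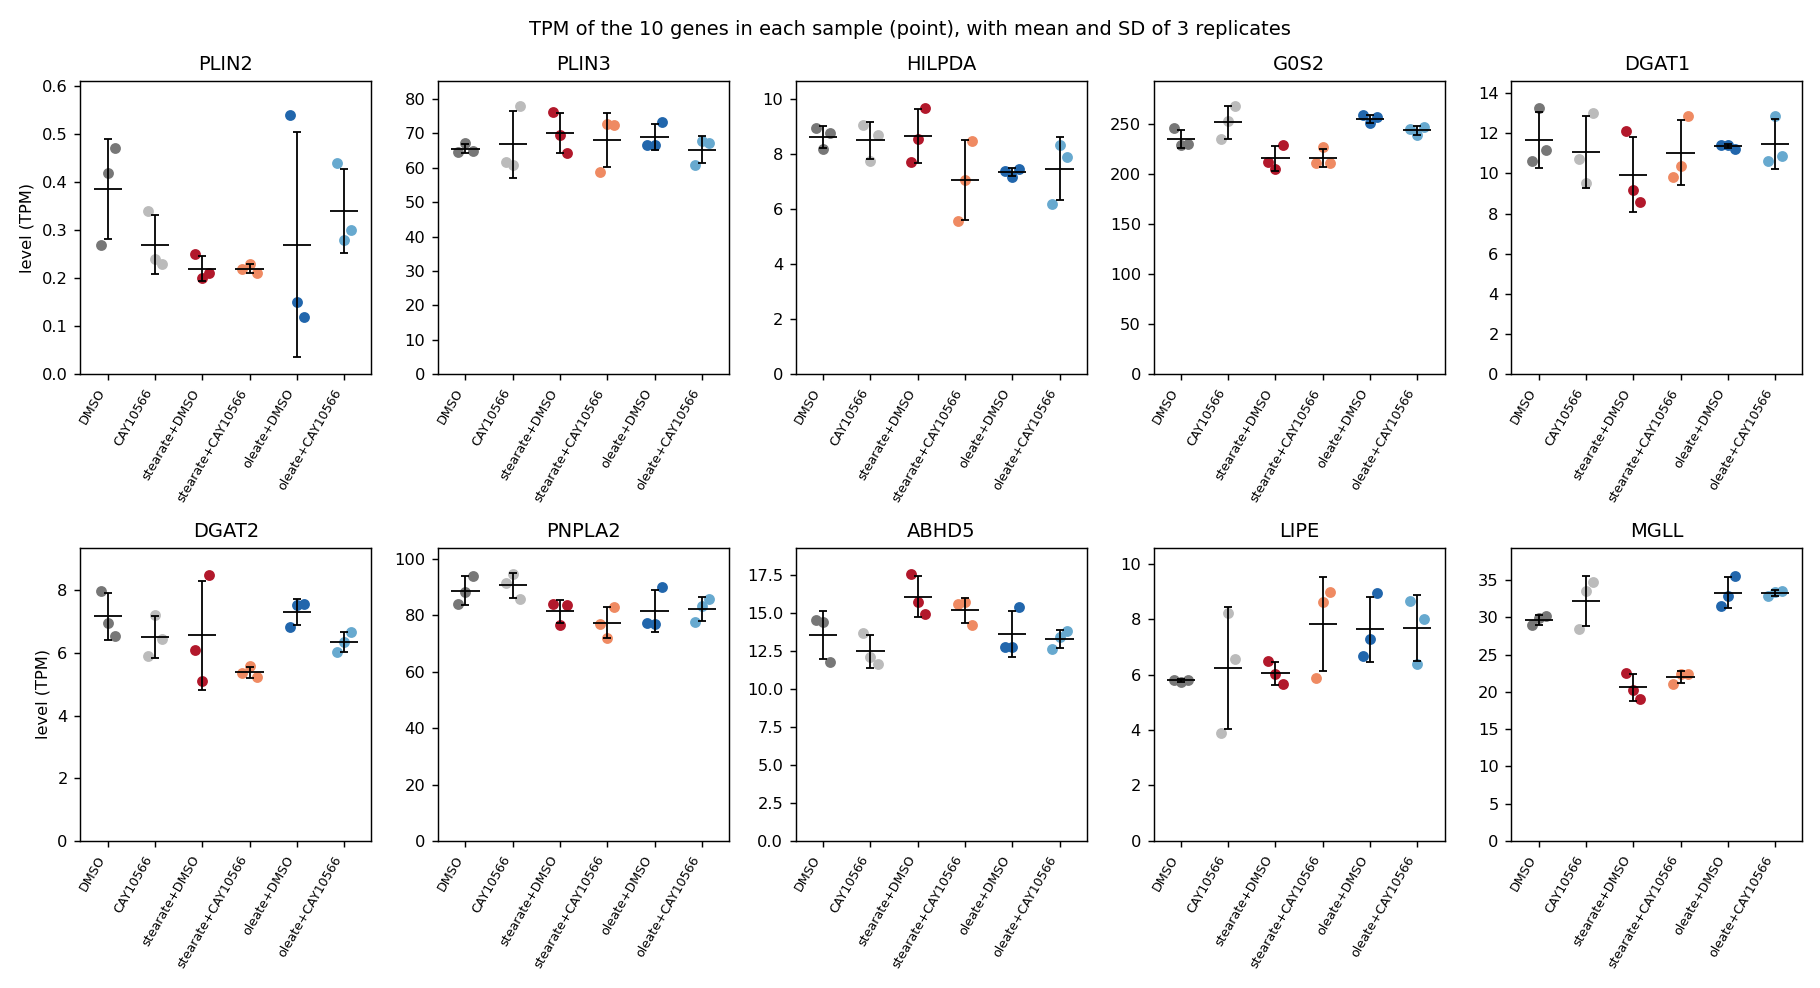
Level in TPM (y axis, from 0, a separate scale for each gene) of the 10 genes in the 6 conditions (x axis). Points are samples, and the line and bar are the mean and SD of 3 replicates. The 6 stearate samples of MGLL lie between 19 and 22.6 TPM, below every other sample, and PLIN2 does not exceed 0.54 TPM anywhere.

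PLIN2 and PLIN3 coat the droplet surface. PLIN2 (ENSG00000147872, chr9:19108375-19149290) is the perilipin usually found on droplets outside fat tissue and a known target of PPAR receptors. Here it was at 0.27, 0.42 and 0.47 TPM in DMSO and at 0.34, 0.24 and 0.23 TPM in CAY10566. It was at 0.25, 0.2 and 0.21 TPM in stearate + DMSO and at 0.22, 0.23 and 0.21 TPM in stearate + CAY10566. Oleate + DMSO gave 0.54, 0.15 and 0.12 TPM and oleate + CAY10566 0.44, 0.28 and 0.3 TPM. PLIN2 was thus low in every condition, the oleate samples spread over and beyond the range of the controls, and no test was made at this level. Whether the low values reflect the cells or the quantification was not tested.

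PLIN3 (ENSG00000105355, chr19:4838341-4867694) encodes the perilipin that moves between the cytosol and young droplets. It made up 95.3 to 98.3% (median 97.5%) of the summed TPM of the 5 perilipin genes in the 18 samples, a share that rests on PLIN2 as quantified here. Its level was 66.2 ± 6.19 TPM without fatty acid, 69.1 ± 6.33 with stearate and 67.1 ± 3.97 with oleate (mean ± SD, n = 6). These groups overlapped, and PLIN3 did not pass the test with stearate (log2 fold change 0.06, 95% interval −0.07 to 0.19, limma with Benjamini-Hochberg adjustment, adjusted p = 0.532) or with oleate (0.02, −0.11 to 0.15, adjusted p = 0.843). Changes in the coat gene of more than 0.19 on the log2 scale lie outside the 95% interval for either fatty acid.

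Next, stearate was compared with no fatty acid (6 against 6 samples, CAY10566 and DMSO samples together). MGLL, G0S2 and PNPLA2 fell and ABHD5 rose, so that 4 of the 9 tested genes passed an FDR of 0.05 (Benjamini-Hochberg), 1 upward and 3 downward. Across all tested genes 19.4% passed, 13.5% upward and 5.97% downward. With size factors in place of TPM the split over all genes was 7.75% upward and 10.3% downward, and 0 of the 9 genes passed upward and 3 downward. With a fold limit added to the rule (an absolute log2 fold change over 0.32), only MGLL remained of the 9, against 5.35% of all genes. The median log2 fold change of the 9 genes was −0.13, beside 0.06 over all tested genes. Here and below, fold changes are on the scale of log2(TPM + 1), which understates the change of low genes.

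MGLL (ENSG00000074416, chr3:127689062-128052190), the enzyme of the last step of lipolysis, showed the largest change of the 9. Its levels were 28.9, 29.9 and 30.2 TPM in DMSO and 28.4, 33.6 and 34.7 TPM in CAY10566. They were 22.6, 20.3 and 19 TPM in stearate + DMSO and 21, 22.5 and 22.4 TPM in stearate + CAY10566. All 6 stearate samples lay below all 6 controls, an arrangement seen downward in 3.09% of all tested genes. MGLL fell by 30.1% with stearate (log2 fold change −0.52, SE 0.0533, limma adjusted p = 2.19e-06), and the call was kept in 27 of 27 alternative settings. The keratin genes fell in the same samples, as given above. SEC61A1, a translocon gene that overlaps MGLL on the opposite strand, was higher in the same samples, at 92.7 ± 4.28 TPM with stearate against 76 ± 4.48 TPM in controls (mean ± SD, n = 6). The strand setting of the authors' quantification is not given in the sources used here, so reads of the shared stretch may not be told apart.

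G0S2 (ENSG00000123689, chr1:209675412-209676390), which inhibits PNPLA2, was at 246, 229.8 and 230.1 TPM in DMSO and 235.5, 253 and 268 TPM in CAY10566. It was at 212.8, 205.7 and 229.6 TPM in stearate + DMSO and 211.1, 227.1 and 211 TPM in stearate + CAY10566. The highest stearate sample stood just below the lowest control. G0S2 fell by 11.2% (log2 fold change −0.17, SE 0.0378, limma adjusted p = 0.0041). HSD11B1-AS1, which overlaps it on the opposite strand, was at 3.54 ± 1.66 TPM in controls and 3.01 ± 1.17 TPM with stearate.

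PNPLA2 (ENSG00000177666, chr11:818914-825573), the triglyceride lipase itself, was at 84.1, 88.4 and 94 TPM in DMSO and 91.6, 94.6 and 85.8 TPM in CAY10566. With stearate it was at 83.9, 76.7 and 83.7 TPM in DMSO and 77, 72.1 and 83 TPM in CAY10566. The groups did not overlap, but the highest stearate sample (83.9 TPM) and the lowest control (84.1 TPM) were nearly equal. PNPLA2 fell by 11.4% (log2 fold change −0.18, SE 0.0472, limma adjusted p = 0.0142). G0S2 and PNPLA2 were not called in separate fits of the DMSO samples and of the CAY10566 samples (3 against 3), with limma adjusted p = 0.0912 and 0.0768 for G0S2 and 0.249 and 0.128 for PNPLA2.

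ABHD5 (ENSG00000011198, chr3:43690108-43734371), the co-activator of PNPLA2, went the other way. It was at 14.5, 14.4 and 11.8 TPM in DMSO and 13.7, 12.1 and 11.6 TPM in CAY10566. Stearate + DMSO gave 17.6, 15.7 and 14.9 TPM and stearate + CAY10566 15.6, 15.7 and 14.2 TPM. The groups overlapped only at their edges, where 1 stearate sample lay below the highest controls. ABHD5 rose by 18.7% (log2 fold change 0.25, SE 0.0656, limma adjusted p = 0.013). Scaling by size factors in place of TPM reduced the change to 0.19 with an adjusted p of 0.0541. ABHD5 was also not called in separate fits of the DMSO samples (0.23, limma adjusted p = 0.166) and of the CAY10566 samples (0.26, adjusted p = 0.16). ANO10, a scramblase family gene that overlaps ABHD5 on the opposite strand, was at 19 ± 1.23 TPM with stearate and 16.6 ± 1.24 TPM in controls (log2 fold change 0.19, adjusted p = 0.0723, or 0.0401 without oleate + DMSO replicate 3), and its part in the ABHD5 value was not tested.

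The remaining genes did not pass with stearate. DGAT1 (ENSG00000185000, chr8:144314584-144326910) was at 10.5 ± 1.68 TPM against 11.4 ± 1.47 TPM in controls (log2 fold change −0.11, 95% interval −0.30 to 0.08, limma adjusted p = 0.4). DGAT2 (ENSG00000062282, chr11:75759512-75801535) was at 5.97 ± 1.28 against 6.84 ± 0.725 TPM (−0.18, −0.38 to 0.02, adjusted p = 0.193). In DGAT2, 5 of the 6 stearate samples lay between 5.09 and 6.1 TPM and stearate + DMSO replicate 3 at 8.48 TPM, above every control. Without that sample DGAT2 fell by 0.27 on the log2 scale (adjusted p = 0.0171).

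HILPDA (ENSG00000135245, chr7:128455849-128458418), a hypoxia-induced inhibitor of PNPLA2, was at 7.85 ± 1.41 TPM with stearate and 8.57 ± 0.501 TPM in controls (log2 fold change −0.13, 95% interval −0.32 to 0.07, limma adjusted p = 0.347). LIPE (ENSG00000079435, chr19:42401514-42427388) was at 6.93 ± 1.47 against 6.01 ± 1.41 TPM (0.18, −0.10 to 0.46, adjusted p = 0.352). LIPE-AS1, an antisense gene over LIPE with a comparable level, fell from 11.6 ± 2.76 to 7.67 ± 2.21 TPM (log2 fold change −0.55, adjusted p = 0.0332), a call lost in 6 of 18 omissions of 1 sample. The values of LIPE are uncertain to the extent that reads of the 2 genes were shared.

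**Figure D2:**
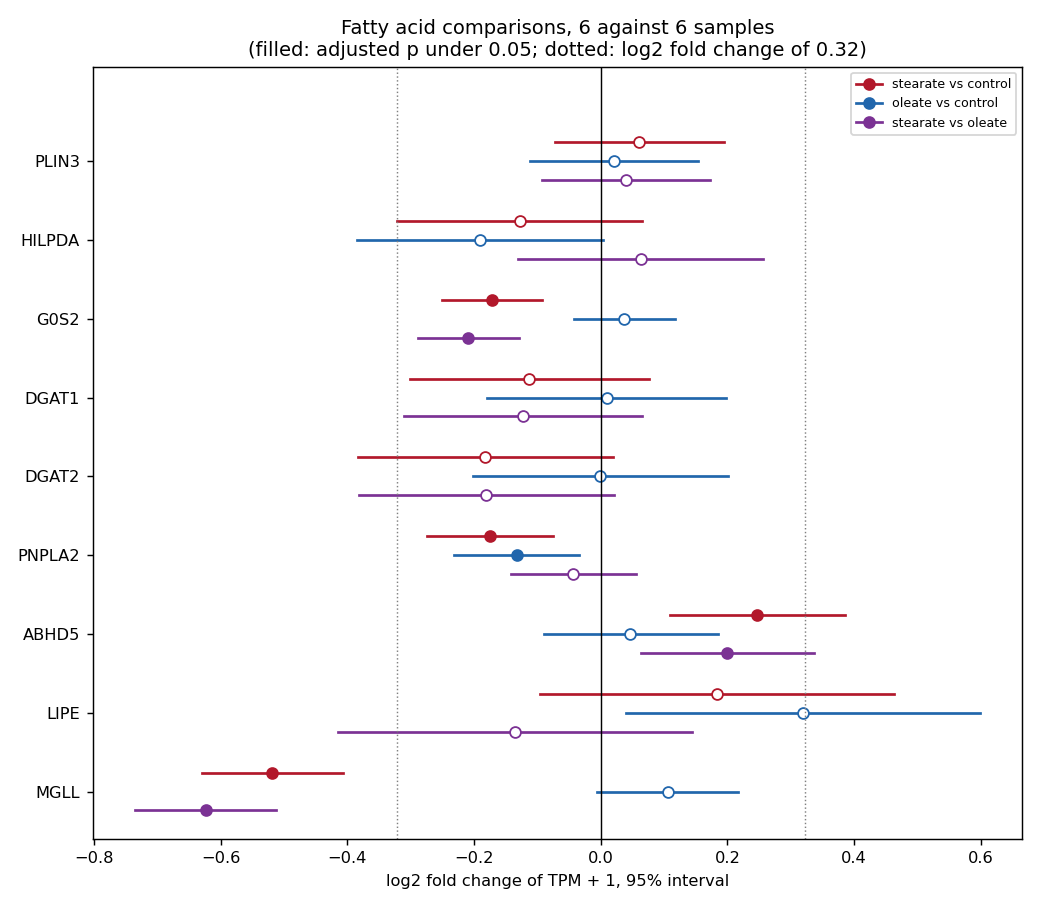
Log2 fold change of TPM + 1 (x axis) with its 95% interval for the 9 tested genes (y axis) in 3 comparisons of 6 against 6 samples. Filled points passed an adjusted p of 0.05 and dotted lines mark a log2 fold change of 0.32 in either direction. MGLL lies beyond the dotted line with stearate against control (−0.52) and against oleate (−0.62), and no gene is filled beyond it for oleate against control.

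Oleate was compared with no fatty acid in the same way. PNPLA2 alone passed the FDR of 0.05 among the 9 genes, whereas 25.7% of all tested genes did, 23% upward and 2.7% downward. With size factors the split over all genes was 8.89% upward and 9.42% downward. None passed with the fold limit, against 6.9% of all genes. The median log2 fold change of the 9 was 0.02, beside 0.09 over all genes. PNPLA2 was at 77.4, 76.9 and 90 TPM in oleate + DMSO and 77.6, 83.4 and 85.8 TPM in oleate + CAY10566. It fell by 8.77% from the controls (log2 fold change −0.13, SE 0.0472, limma adjusted p = 0.046), with overlapping groups. With size factors the value was −0.23 (adjusted p = 0.0062). KRT18 and KRT19 fell in the same samples, as given above. This call was lost in 15 of 27 alternative settings, in which the adjusted p reached 0.517, among them CAY10566 as a covariate (adjusted p = 0.0527). It was also lost when any 1 of 10 samples was left out, with adjusted p values of 0.0508 to 0.106: DMSO replicates 2 and 3, CAY10566 replicates 1 and 2, stearate + DMSO replicate 2, stearate + CAY10566 replicate 1, and replicates 1 and 2 of both oleate conditions. The stearate samples among these enter only through the shared estimate of the spread.

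MGLL was not called with oleate. Its levels were 31.6, 32.9 and 35.6 TPM in oleate + DMSO and 32.9, 33.5 and 33.6 TPM in oleate + CAY10566, within or just above the range of the controls (log2 fold change 0.11, 95% interval −0.01 to 0.22, limma adjusted p = 0.153). With size factors the value was 0.006 (adjusted p = 0.954). Without CAY10566 replicate 3, the highest control, MGLL rose by 0.14 on the log2 scale (adjusted p = 0.0406). G0S2, at 249.9 ± 7.46 TPM, gave 0.04 (adjusted p = 0.503), and ABHD5, at 13.5 ± 1.05 TPM, gave 0.05 (adjusted p = 0.638). LIPE had the largest fold change with oleate, 7.65 ± 1.05 against 6.01 ± 1.41 TPM, but did not pass (0.32, 0.04 to 0.60, adjusted p = 0.0857). It passed in 2 of 27 alternative settings. These were DMSO samples only and the omission of CAY10566 replicate 2, a control at 8.23 TPM (0.40, adjusted p = 0.0357). Omissions of 1 sample gave LIPE values from 0.22 to 0.40, with limma adjusted p of up to 0.204. DGAT1 (0.01, adjusted p = 0.953) and DGAT2 (−0.001, adjusted p = 0.996) did not pass, and HILPDA was at 7.4 ± 0.733 TPM (−0.19, −0.38 to 0.00, adjusted p = 0.136).

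With size factors in place of TPM, the signs of PLIN3 (−0.081), G0S2 (−0.065), DGAT1 (−0.085) and ABHD5 (−0.048) turned with oleate, none of them called. HILPDA then also fell with oleate (log2 fold change −0.28, limma adjusted p = 0.0348). A transcript without a symbol, ENSG00000273184, overlaps HILPDA on the same strand and ranged from 0 to 6.88 TPM between samples. The sum of the 2 genes was 11.8 ± 1.37 TPM in controls, 10.6 ± 1.73 TPM with stearate and 9.1 ± 2.58 TPM with oleate. How reads were split between them was not tested.

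Stearate and oleate were then compared directly, which uses the samples above again. MGLL, G0S2 and ABHD5 differed between the fatty acids, 3 of 9 genes at an FDR of 0.05 against 21.1% of all tested genes (6.85% higher and 14.3% lower with stearate, or 10.5% and 11.4% with size factors), and MGLL alone with the fold limit against 6.37%. MGLL was lower with stearate (log2 fold change −0.62, SE 0.0533, limma adjusted p = 8.23e-08) and G0S2 lower (−0.21, adjusted p = 0.000618), both with no overlap between the groups. Such a full separation downward was seen in 7.28% of all tested genes. ABHD5 was 14.9% higher with stearate (0.20, 95% interval 0.06 to 0.34, adjusted p = 0.0359), but this call was lost in 11 of 27 alternative settings. Among these were the omission of any 1 of 8 samples (replicates 1 and 2 of both stearate and both oleate conditions), with adjusted p values of 0.058 to 0.0794. PNPLA2, which was called against control with both fatty acids, gave −0.04 (−0.14 to 0.06, adjusted p = 0.565) between them. DGAT2 (−0.18, adjusted p = 0.196), DGAT1 (−0.12, adjusted p = 0.363), LIPE (−0.14, adjusted p = 0.51), HILPDA (0.06, adjusted p = 0.681) and PLIN3 (0.04, adjusted p = 0.708) did not pass. Without stearate + DMSO replicate 3, DGAT2 was lower with stearate by this test as well (−0.27, adjusted p = 0.0173).

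To see whether blocking desaturation altered these genes, CAY10566 was compared with DMSO over 9 against 9 samples with the fatty acid as a covariate. None of the 9 genes passed, and neither did any other gene (0% of genes tested called by limma at an adjusted p of 0.05, 748 at an unadjusted p under 0.05). DGAT2, the triglyceride synthesis enzyme long tied to fatty acids newly made in the cell, showed the largest difference. It was at 6.08 ± 0.65 TPM with CAY10566 and 7.01 ± 1.03 TPM with DMSO (log2 fold change −0.17, 95% interval −0.32 to −0.02, unadjusted p = 0.0241 and adjusted p = 0.894 by limma). By p it stood at rank 357 among the 13789 tested genes. When 1 sample was left out at a time, this value ranged from −0.21 to −0.12. The mean of DGAT2 was lower with CAY10566 in each of the 3 fatty acid settings, with log2 fold changes of −0.12 without fatty acid, −0.22 with stearate and −0.18 with oleate. Without stearate + DMSO replicate 3, the high sample named above, the stearate value was −0.04 (95% interval −0.27 to 0.18, adjusted p = 0.934). The other 8 genes gave values between −0.09 (HILPDA) and 0.12 (LIPE), with adjusted p values from 0.97 to 0.999.

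The effect of each fatty acid was also set side by side in the absence and presence of CAY10566, and the difference was tested as an interaction, in a model of all 6 conditions that share 1 estimate of the spread. Of all tested genes 0.00725% (1 gene, not among the 9) were called for stearate and 0% for oleate by limma at an adjusted p of 0.05, while 1290 and 1415 had an unadjusted p under 0.05. Within the settings, 1447 of the 13789 tested genes were called upward and 487 downward with stearate in DMSO, and 300 and 355 in CAY10566. With oleate these counts were 2911 and 428 in DMSO, and 8 and 7 in CAY10566. MGLL fell with stearate in DMSO (−0.51, adjusted p = 0.000587) and in CAY10566 (−0.53, adjusted p = 0.000433). The interaction of −0.02 had a 95% interval from −0.24 to 0.20, so differences of that size between the 2 settings cannot be told from none. G0S2 gave −0.12 in DMSO (adjusted p = 0.104) and fell in CAY10566 (−0.22, adjusted p = 0.0184), with an interaction of −0.09 (−0.24 to 0.06, adjusted p = 0.656). For PNPLA2 the interaction was −0.10 (−0.31 to 0.11, adjusted p = 0.736) and for ABHD5 0.03 (−0.25 to 0.32, adjusted p = 0.953). The smallest unadjusted p among the 9 genes belonged to G0S2 with oleate (interaction −0.17, limma unadjusted p = 0.0323 and adjusted p = 0.465).

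**Figure D3:**
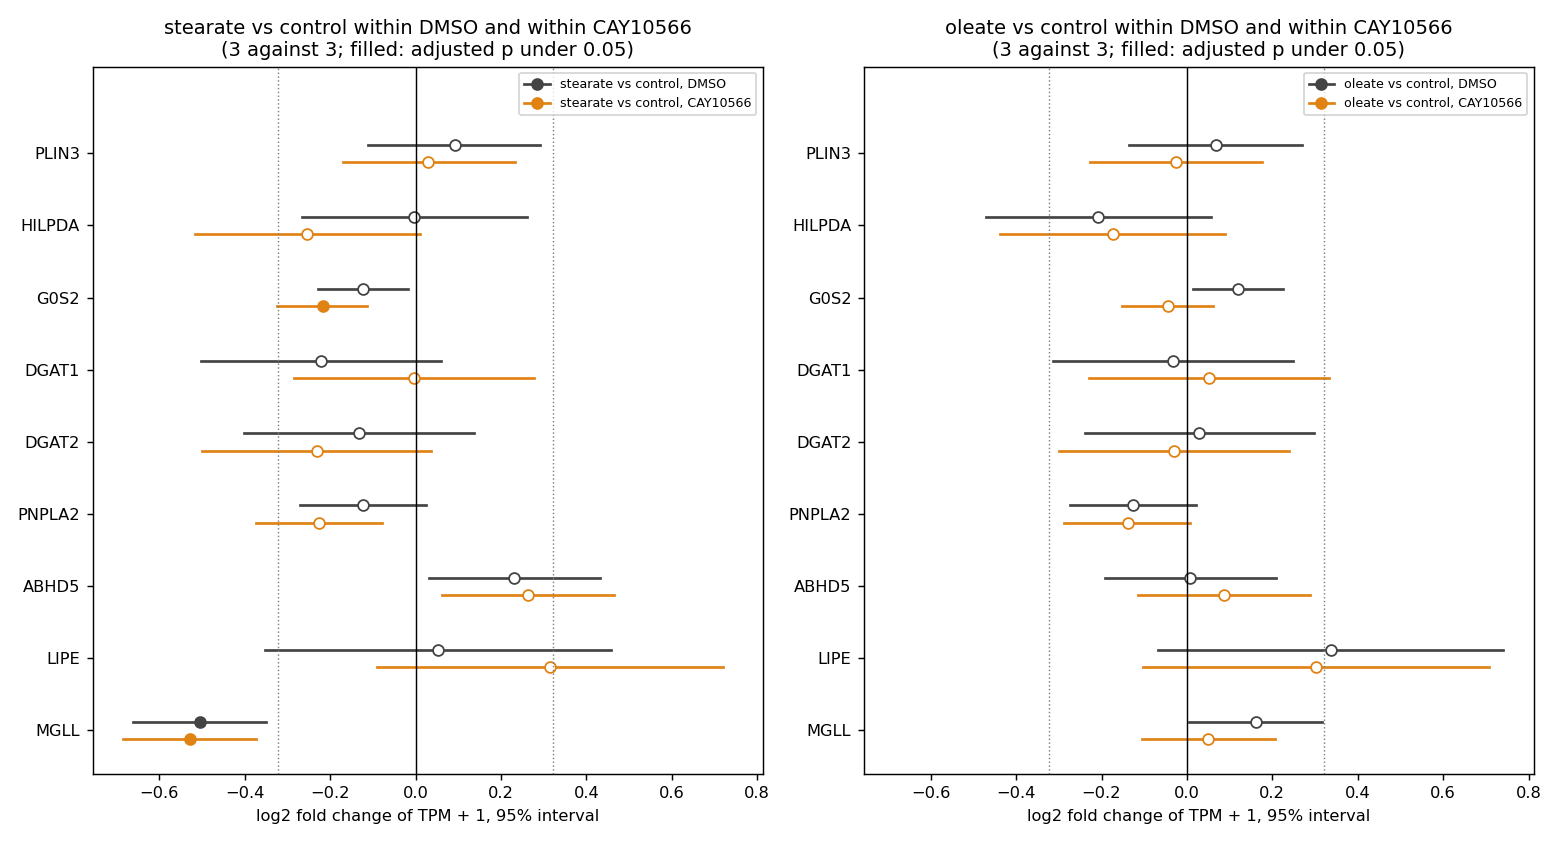
Log2 fold change of TPM + 1 against no fatty acid (x axis) with its 95% interval for the 9 tested genes (y axis), for stearate (left) and oleate (right), within DMSO and within CAY10566 (3 against 3 samples). Filled points passed an adjusted p of 0.05 and dotted lines mark a log2 fold change of 0.32. MGLL with stearate is filled in both settings, at −0.51 and −0.53, and no point is filled for oleate. Of all 13789 tested genes, 2911 rose and 428 fell with oleate in DMSO, and 8 and 7 in CAY10566.

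Because ABHD5 activates and G0S2 inhibits the same lipase, ratios of the levels of these genes within a sample were examined, a choice made after the values were seen and given as a description with no test. The ratio of ABHD5 to G0S2 was 0.0434 to 0.0627 in the 6 controls, 0.065 to 0.0825 with stearate and 0.0494 to 0.0598 with oleate. The stearate samples thus lay above both other groups without overlap. ABHD5 rose and G0S2 fell with stearate, as given above, so a higher ratio follows from those values and is no separate result. How many pairs of genes separate in this way was not counted. ABHD5 to PNPLA2 was 0.125 to 0.173 in controls, 0.171 to 0.218 with stearate and 0.161 to 0.171 with oleate. G0S2 to PNPLA2 was 2.45 to 3.12 in controls, 2.54 to 3.15 with stearate and 2.86 to 3.34 with oleate, so both genes were lower with stearate in nearly the same proportion. MGLL to PNPLA2 was 0.227 to 0.311 with stearate, 0.31 to 0.405 in controls and 0.392 to 0.428 with oleate. These are ratios of RNA levels, and neither protein nor lipase activity was measured here.

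**Figure D4:**
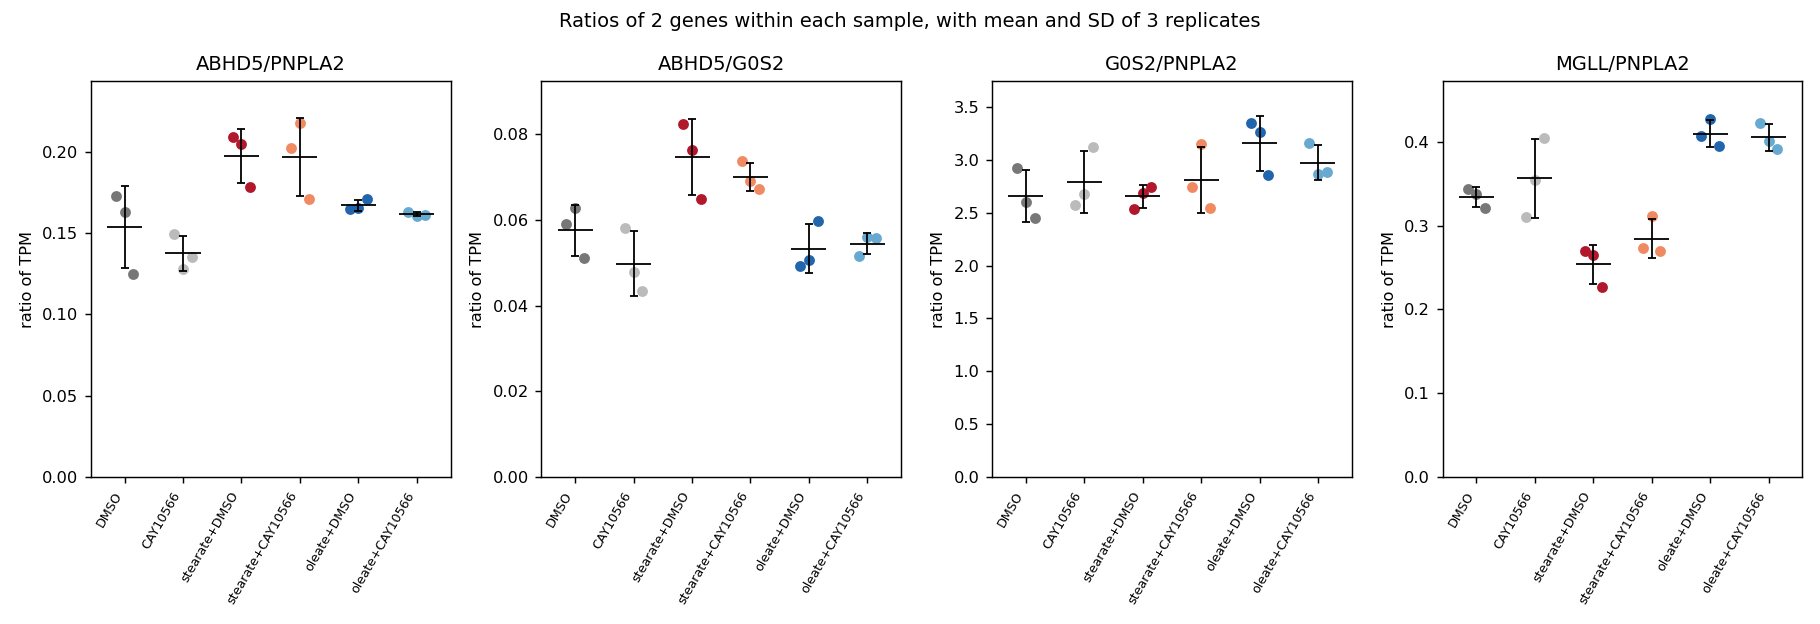
Ratio of the TPM of 2 genes within a sample (y axis, from 0) in the 6 conditions (x axis). Points are samples, and the line and bar are the mean and SD of 3 replicates. ABHD5/G0S2 is above 0.0649 in each stearate sample and at most 0.0627 in all others. These 2 genes were paired after their values were seen.

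Among the 10 genes, the levels of MGLL and G0S2 moved together over the 18 samples (Pearson r = 0.849), and both ran against ABHD5 (r = −0.676 and −0.651). These coefficients are descriptions over 18 samples that share 3 fatty acid groups. Of all tested genes, those with the pattern most like that of MGLL were PODXL, a sialomucin of the cell surface (r = 0.978), LRRC8A, a subunit of volume-regulated anion channels (r = 0.975), and TNS4, a tensin of focal adhesions (r = 0.975). With stearate their log2 fold changes were −0.65, −0.59 and −0.75, beside −0.52 for MGLL. With oleate they were 0.23, 0.09 and 0.08, beside 0.11 for MGLL. The 3 genes were picked for likeness over these same 18 samples, so similar changes are built into the choice.

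Genes that work beside the 10 were read from lists written for this report. Their counts stand beside the shares of all tested genes called in each direction: 13.5% up and 5.97% down with stearate, 23% up and 2.7% down with oleate, and 6.85% higher and 14.3% lower with stearate than with oleate. With size factors, 8 of the 9 calls named from the lists with stearate, 6 of 9 with oleate and 9 of 9 between the fatty acids were kept. When each sample was left out in turn, 5 of 9, 5 of 9 and 6 of 9 of these calls were kept in all 18 omissions. Without CAY10566 replicate 3 the shares of all genes became 20.3% up and 6.53% down with stearate and 30.1% up and 4.11% down with oleate. Among 8 tested of 16 other droplet proteins, 4 rose and 0 fell with stearate. They included HSD17B11, a droplet dehydrogenase (log2 fold change 0.30, limma adjusted p = 0.000664), and FITM2, which helps droplets bud from the endoplasmic reticulum (0.28, adjusted p = 0.0245, lost in 2 of 18 omissions). With oleate 1 of the 8 rose and 1 fell: RAB18, a small GTPase on droplets (0.19, adjusted p = 0.0201, or 0.09 and 0.21 with size factors), and ACSL3, the acyl-CoA synthetase of young droplets (−0.19, adjusted p = 0.0204). The first was lost in 2 of 18 omissions and the second in 1. ACSL3 (0.37, adjusted p = 0.000117) and HSD17B11 (0.35, adjusted p = 9.99e-05) were higher with stearate than with oleate. The median log2 fold change of the list was 0.16 with stearate and 0.07 with oleate. With size factors 3 rose and 0 fell with stearate, and 0 rose and 1 fell with oleate, with medians of 0.10 and −0.03.

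Of 14 tested genes of 19 for other steps of glycerolipid and sterol ester synthesis, 2 rose and 0 fell with stearate, and 5 rose and 0 fell with oleate. SOAT1, which esterifies cholesterol (0.25, limma adjusted p = 0.0283, lost in 5 of 18 omissions), and AGPAT1, which makes phosphatidic acid (0.14, adjusted p = 0.0103, or 0.08 and 0.102 with size factors), were the 2 with stearate. AGPAT3 (0.31, adjusted p = 0.00246) and the phosphatidate phosphatase LPIN2 (0.31, adjusted p = 0.00872) changed most with oleate. Between the fatty acids 1 was higher and 2 were lower with stearate, the latter being AGPAT5 (−0.25, adjusted p = 0.00342) and AGPAT3 (−0.19, adjusted p = 0.022, lost in 3 of 18 omissions). The medians were 0.09 with stearate and 0.09 with oleate, close to those of all tested genes (0.06 and 0.09). With size factors 1 rose and 2 fell with stearate and 2 rose and 1 fell with oleate, with medians of 0.03 and −0.01. Without CAY10566 replicate 3, 6 rose with stearate and 6 with oleate, and 2 were higher with stearate than with oleate.

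Of 12 tested genes of 17 for other neutral lipid hydrolases, 1 rose and 1 fell with stearate, and 2 rose and 1 fell with oleate. DDHD2, a lipase best known from neurons, rose with stearate (0.32, limma adjusted p = 0.0294, lost in 6 of 18 omissions) and with oleate (0.37, adjusted p = 0.0129). AADAC, an esterase of the endoplasmic reticulum, fell with stearate (−0.26, adjusted p = 0.042, lost in 8 of 18 omissions). LIPG, endothelial lipase, fell with oleate (−0.39, adjusted p = 0.00112) and was higher with stearate than with oleate (0.34, adjusted p = 0.000469). The medians were 0.06 and 0.01. With size factors 1 rose and 1 fell with each fatty acid, with medians of −0.002 and −0.07. Without CAY10566 replicate 3, 2 rose and 1 fell with stearate.

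Of 9 tested genes of 15 for other targets of PPAR receptors, 5 rose and 0 fell with stearate, 2 rose and 0 fell with oleate, and 5 were higher with stearate than with oleate. Of those called with stearate, SLC25A20, the mitochondrial carrier of acylcarnitines, changed most (0.47, limma adjusted p = 0.000715). CPT2, which releases fatty acids from carnitine inside mitochondria, came next (0.31, adjusted p = 0.000517). CPT1A, the entry enzyme of fatty acid oxidation (0.36, adjusted p = 0.0109), and ACADVL (0.10, adjusted p = 0.0315, or −0.006 and 0.926 with size factors, and lost in 5 of 18 omissions) were those called with oleate. SLC25A20 (0.42, adjusted p = 0.00118) and ANGPTL4, a secreted inhibitor of lipoprotein lipase (0.28, adjusted p = 0.0447, lost in 11 of 18 omissions), were higher with stearate than with oleate. The medians were 0.19 with stearate and 0.08 with oleate. With size factors 3 rose and 0 fell with stearate, 1 rose and 0 fell with oleate, and 5 were higher with stearate than with oleate, with medians against control of 0.13 and −0.02.

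HILPDA is a hypoxia target, and other such genes were read beside it. Of 11 tested genes of 12, 0 rose and 1 fell with stearate, namely the glucose transporter SLC2A1 (−0.31, limma adjusted p = 0.000605), and 1 rose and 0 fell with oleate, namely the kinase PDK1 (0.25, adjusted p = 0.0221, or 0.15 and 0.107 with size factors, and lost in 3 of 18 omissions). ANKRD37 was higher (0.34, adjusted p = 0.0298, lost in 4 of 18 omissions) and VEGFA lower (−0.27, adjusted p = 0.00109) with stearate than with oleate, and 2 in all were lower. The medians were −0.03 with stearate and −0.01 with oleate. With size factors 0 rose and 3 fell with stearate and 0 rose and 1 fell with oleate, with medians of −0.08 and −0.12. Without CAY10566 replicate 3, 1 rose and 1 fell with stearate and 3 rose and 0 fell with oleate.

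**Figure D5:**
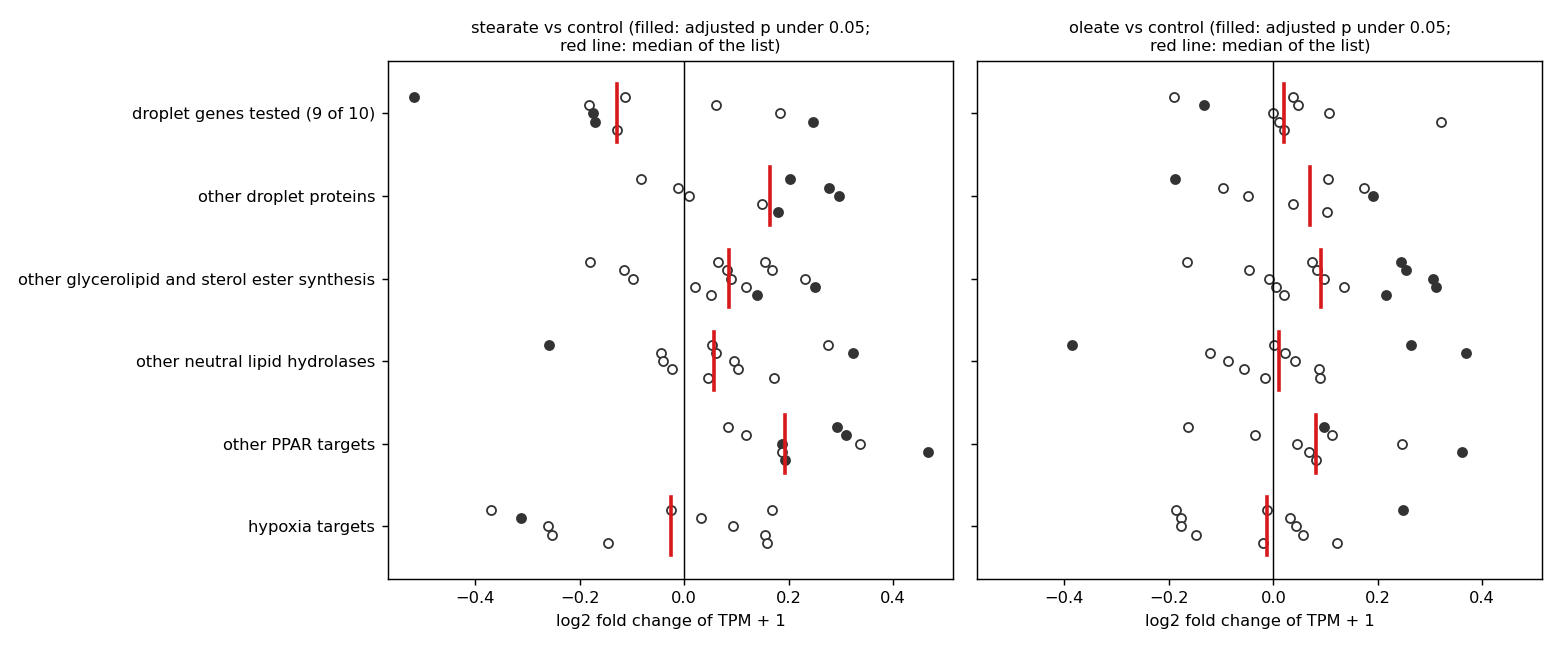
Log2 fold change of TPM + 1 (x axis) for each tested gene of the 6 lists (y axis), for stearate (left) and oleate (right) against no fatty acid. Points are genes, filled where the adjusted p was under 0.05, and red lines are list medians. The 9 droplet genes have a median of −0.13 with stearate, and the other PPAR targets of 0.19 (−0.18 and 0.13 with size factors).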

How the data were processed

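RNA was extracted from OVCAR5 cells (RNeasy Micro), made into TruSeq stranded mRNA libraries and sequenced as paired-end reads on a NovaSeq instrument. Per the study's methods and the labels, the authors trimmed reads with Trim Galore, aligned them with STAR 2.7.1a to GRCh38 (Ensembl release 99) and quantified genes with RSEM, for which the strand setting is not given in the sources used here. The authors deposited TPM per gene, a unit that keeps no depth, so replicate spread is the only measure of precision, and no interval for counting error could be computed. A gene's TPM depends on all others in the sample, and overlapping genes may share reads.

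All 18 samples were used, grouped by their labels. The table held 60483 genes and 1 line that names no gene, which was left out. Tests used limma 3.58.1 in R 4.3.3 (lmFit and eBayes, trend on) applied to log2(TPM + 1) values of the 13789 genes whose mean reached 1 TPM, with Benjamini-Hochberg adjustment over all of them. Calls were made at an FDR of 0.05, alone or with an absolute log2 fold change over 0.32 (the study's fold limit). Stearate, oleate and control each had 6 samples, CAY10566 was tested with fatty acid as a covariate, and interactions in a model of 6 conditions. The procedure was also run on simulated data with independent normal errors for each gene and no shift shared by the genes of a sample. Such data say nothing on the scaling between samples. Figures used matplotlib 3.10.9 in Python 3.11.15. Coordinates are from GENCODE 44 (GRCh38), a later annotation than that of the files.

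The 10 genes and the lists were chosen with earlier results of these data known. Named from the lists are the 2 genes with the largest change among those called in each comparison, and the 3 genes most like each of the 10 that was called with the fold limit, which only MGLL was. Likeness to PLIN2 is not given because of its low level. Alternatives were a pseudocount of 0.1, no filter, a minimum mean of 5 TPM, size factors (medians of ratios of TPM), no trend, a replicate block, CAY10566 as a covariate, DMSO or CAY10566 samples only, and leaving out each sample. Size factors and the omission of each sample for list genes, overlapping genes and markers, counts of the lists with size factors and without CAY10566 replicate 3, and the omission of 1 sample for DGAT2 within stearate, were added after seeing the data. Samples with the same replicate number in different conditions did not deviate together (median correlation 0.012), so the numbers were not taken as pairs.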

Additional observations from a re-analysis of the deposited data

Results flagged for a closer look

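Of 50 groups of samples examined for a value apart from the rest, 3 held one, and chance alone gives about 5% of groups. DGAT1 was at 12.87 TPM in oleate + CAY10566 replicate 2, while the other 5 oleate samples lay between 10.64 and 11.44 TPM. DGAT2 was at 8.48 TPM in stearate + DMSO replicate 3, while the other 5 stearate samples lay between 5.09 and 6.1 TPM. LIPE was at 8.94 TPM in oleate + DMSO replicate 3, while the other 8 samples without CAY10566 lay between 5.65 and 7.27 TPM.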

How the results depend on the processing

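Over all comparisons, 1274 of 1377 values of the 9 genes kept their sign and their side of the threshold, 34 lost a call, 6 gained one and 63 changed sign. MGLL with stearate ranged from −0.58 to −0.48 on the log2 scale, with limma adjusted p from 1.33e-07 to 0.0119. The count of the 9 genes called with stearate (4) fell to 1 with DMSO samples only and to 1 with CAY10566 samples only, with fewer samples in each. The count with oleate (1) was 0 with no filter, without the trend, with CAY10566 samples only and with CAY10566 as a covariate, and 2 with size factors. It ranged from 0 to 2 when a sample was left out, with 2 without CAY10566 replicate 3. The count with oleate and the fold limit (0) was 1 with DMSO samples only (LIPE) and ranged from 0 to 1 when a sample was left out. The count for stearate against oleate (3) was 1 with CAY10566 samples only. The share of all genes called changed too, from 19.4% to 6.42% (stearate), 25.7% to 8.19% (oleate) and 21.1% to 7.38% (between them) with no filter, and to 1.77%, 0.029% and 3.68% with CAY10566 samples only. With DMSO samples only, also 3 against 3, these shares were 15.7%, 26.1% and 10.4%. The setting with no filter also changed the set of genes. The causes of these differences were not tested.

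Sign changes among the 9 genes concerned values that were not called. With oleate against control, size factors gave −0.081 for PLIN3, −0.065 for G0S2, −0.085 for DGAT1 and −0.048 for ABHD5. CAY10566 samples only gave −0.025 for PLIN3 and −0.045 for G0S2, and DMSO samples only −0.032 for DGAT1 and 0.029 for DGAT2. Between stearate and oleate, CAY10566 samples only gave −0.08 for HILPDA and 0.012 for LIPE, and DMSO samples only 0.002 for PNPLA2. Size factors gave 0.006 for PNPLA2 with CAY10566 against DMSO. They gave 0 for PLIN3 and 0.035 for MGLL in the stearate interaction, and 0.046 for PNPLA2 and 0.019 for LIPE in the oleate interaction. Outside the 10 genes, they gave −0.006 for ACADVL with oleate, which had been called, and 0.026 for HSF1 between stearate and oleate. When each sample was left out in turn, oleate against control ranged from −0.004 to 0.068 for PLIN3, −0.036 to 0.052 for DGAT1 and −0.037 to 0.04 for DGAT2. CAY10566 against DMSO ranged from −0.008 to 0.025 for G0S2, −0.015 to 0.059 for DGAT1 and −0.023 to 0.01 for PNPLA2. The stearate interaction ranged from −0.124 to 0.054 for PLIN3, −0.243 to 0.077 for DGAT2, −0.017 to 0.125 for ABHD5 and −0.109 to 0.041 for MGLL. The oleate interaction ranged from −0.156 to 0.022 for PLIN3, −0.04 to 0.15 for HILPDA, −0.013 to 0.195 for DGAT1, −0.131 to 0.007 for DGAT2, −0.055 to 0.06 for PNPLA2 and −0.292 to 0.166 for LIPE.

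Of the printed calls outside the 10 genes, omissions of 1 sample ended these. With stearate, FITM2 was lost without CAY10566 replicate 2 or stearate + DMSO replicate 1, and SOAT1 without CAY10566 replicate 2, DMSO replicates 2 or 3, stearate + CAY10566 replicate 3 or stearate + DMSO replicate 1. DDHD2 was lost without CAY10566 replicate 1, DMSO replicates 2 or 3, stearate + CAY10566 replicate 1 or stearate + DMSO replicates 1 or 3. AADAC was lost without CAY10566 replicate 2, any DMSO or stearate + DMSO replicate, or stearate + CAY10566 replicate 1. LIPE-AS1 was lost without CAY10566 replicate 2, DMSO replicates 1 or 2, stearate + CAY10566 replicates 2 or 3 or stearate + DMSO replicate 1. With oleate, RAB18 was lost without DMSO or oleate + DMSO replicate 2, ACSL3 without CAY10566 replicate 1, and PDK1 without DMSO replicates 2 or 3 or oleate + DMSO replicate 3. ACADVL was lost without CAY10566 replicates 1 or 2, DMSO replicate 3, oleate + CAY10566 replicate 2 or oleate + DMSO replicate 3. KRT19 was lost without any CAY10566 replicate, DMSO replicate 2, or replicates 1 or 2 of oleate + CAY10566 and 2 or 3 of oleate + DMSO. Between the fatty acids, AGPAT3 was lost without oleate + DMSO replicate 2, stearate + CAY10566 replicate 1 or stearate + DMSO replicate 3. ANKRD37 was lost without replicates 1 or 3 of oleate + CAY10566 or 1 or 2 of stearate + DMSO. ANGPTL4 was lost without DMSO replicates 1 or 3, replicates 1 or 2 of oleate + CAY10566, 2 or 3 of oleate + DMSO, any stearate + CAY10566 replicate, or replicates 1 or 2 of stearate + DMSO. The highest adjusted p was 0.106 (ANGPTL4). With oleate, KRT8 gained a call without DMSO replicate 3, stearate + DMSO replicate 3 or oleate + CAY10566 replicates 2 or 3, CDH1 without CAY10566 replicate 3 or stearate + DMSO replicates 1 or 3, and COL1A1 without replicate 3 of CAY10566 or oleate + CAY10566. Uncalled values that changed sign ranged from −0.019 to 0.013 for EPCAM and −0.059 to 0.041 for ANO10 with oleate, −0.582 to 0.014 for ENSG00000273184 with stearate, and −0.038 to 0.001 for HSF1 between the fatty acids. HSD11B1-AS1 ranged from −0.279 to 0 with stearate, −0.106 to 0.182 with oleate and −0.354 to 0.004 between them.

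The replicate numbers did not mark pairs, with correlations of −0.18 to 0.103 between samples of 1 number and −0.124 to 0.171 between others. A fit with a replicate block called 4 of the 9 genes with stearate, 1 with oleate and 3 between them, as without the block, with 18.2%, 24.2% and 20.2% of all genes.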

Other observations

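Genes that overlap MGLL, LIPE, ABHD5 and DGAT1 on the opposite strand were read in the same fits. SEC61A1 over MGLL rose with stearate (log2 fold change 0.28, limma adjusted p = 6.6e-05) and with oleate (0.16, adjusted p = 0.00818, or 0.06 and 0.248 with size factors), whereas MGLL fell with stearate and was not called with oleate. LIPE-AS1 fell with stearate (−0.55, adjusted p = 0.0332, lost in 6 of 18 omissions of 1 sample) and gave −0.24 with oleate (adjusted p = 0.324), while LIPE gave 0.18 and 0.32. ANO10 over ABHD5 gave 0.19 between stearate and oleate (adjusted p = 0.0657, or 0.23 and 0.0275 with size factors, and 0.25 and 0.0137 without oleate + DMSO replicate 3), beside 0.20 for ABHD5. HSF1 over DGAT1, at 92.5 TPM, gave −0.06 with stearate (adjusted p = 0.262, or −0.12 and 0.0409 with size factors) and −0.04 with oleate (adjusted p = 0.415, or −0.14 and 0.0163). Whether reads were shared within these overlaps was not tested.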
